A study of Homo sapiens with 4 samples.

Results

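The designed RNAs described here are versions of strong GGACU sites in which 2 or 3 of the motif bases were exchanged, so that the site read AAACC or GAACC or UAACC (together DAACC, where D is A, G or U). They were the lines of the permutated class with A, G or U at position 49, A at positions 50 and 51 and C at positions 52 and 53. The rule found 450 of the 11999 oligonucleotides, which are 150 of 3949 distinct sequences: 50 loci in 3 versions, each version made as 3 oligonucleotides that differ in their tag. The adenosine under study is the one at position 51. Its reference is the GGACU sequence of the same locus, called the partner. The partner was identical outside the motif at 21 loci and differed from the versions only within the first 5 positions at the other 29. GAACC departs from GGACU at 2 bases, and AAACC and UAACC at 3.

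The RNAs were transcribed in vitro and purified. The unmethylated group (labelled untreated) was 2 libraries of RNA incubated without a writer. The methylated group was 2 libraries of the same pool incubated with recombinant METTL3–METTL14 complex. In all 4 libraries an m6A antibody was crosslinked to the RNA, and the counts are reverse transcription stops, assigned to single positions, that mark the crosslinks.

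N6-methyladenosine (m6A) is written on messenger RNA by a heterodimer in which METTL3 carries the catalytic site and METTL14 helps to hold the RNA. The complex acts in the DRACH context (R is A or G, H is A, C or U), and GGACU is the form best known as methylated in cells. Antibodies to m6A can also crosslink to unmodified RNA, which is why the signal without the enzyme is given beside each value.

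The sequences of 3 loci show what was exchanged. Each line runs from position 39 to position 63, the letters in capitals are the motif, and the adenosine is the third capital. PACS2, whose product sorts proteins at contacts of the endoplasmic reticulum with mitochondria, is the locus at which versions were called different. It lies on the plus strand of GRCh38 at chr14:105395000-105395024.
PACS2 GGACU: cuggaagucaGGACUcugcuuccuc
PACS2 AAACC: cuggaagucaAAACCcugcuuccuc
PACS2 GAACC: cuggaagucaGAACCcugcuuccuc
PACS2 UAACC: cuggaagucaUAACCcugcuuccuc

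SLC35H1, of the nucleotide-sugar transporter family, held the most counts at the adenosine. It lies on the minus strand of GRCh38 at chr20:46350244-46350268.
SLC35H1 GGACU: gccaagccagGGACUcaugacuuuu
SLC35H1 AAACC: gccaagccagAAACCcaugacuuuu
SLC35H1 GAACC: gccaagccagGAACCcaugacuuuu
SLC35H1 UAACC: gccaagccagUAACCcaugacuuuu

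SPG7, which encodes the mitochondrial protease paraplegin, is the one locus where all 3 versions could be tested against a partner identical outside the motif. It lies on the plus strand of GRCh38 at chr16:89557647-89557671.
SPG7 GGACU: ugcaaguugaGGACUucuugcuggu
SPG7 AAACC: ugcaaguugaAAACCucuugcuggu
SPG7 GAACC: ugcaaguugaGAACCucuugcuggu
SPG7 UAACC: ugcaaguugaUAACCucuugcuggu

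These regions are named by overlap with RefSeq genes of GRCh38, without regard to strand. Of the 50 loci, 44 lay in exactly 1 gene. Exon and UTR positions were not used here. The GC content of the GGACU sequences of the 50 loci ran from 26.95% to 71.6%, with a median of 54.6%. They held 0 to 6 further DRACH motifs, with a median of 3.

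Depth limited most members. The libraries held 10483825 and 12028474 counts (unmethylated) and 13110615 and 13265092 counts (methylated). Of these, the 150 sequences held 218058, 239354, 249806 and 274727. The median sequence held 445.5 to 595 counts per library over its 141 positions. At the adenosine itself, 97 and 91 of the 150 sequences had no count without the enzyme, against 75 and 83 with it. For this reason the versions are first given pooled over all 50 loci, as counts at position 51 per 1000 counts of the same sequences.

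In all 3 weakened motifs the signal at the adenosine was higher in the libraries incubated with the complex. The AAACC versions held 3.81 and 2.99 counts per 1000 without the enzyme and 5.998 and 4.92 with it. The GAACC versions stood at 2.62 and 3.09 without the enzyme and at 7.09 and 7.30 with it. The UAACC versions stood at 2.03 and 2.19 without the enzyme and at 6.50 and 4.38 with it.

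For each version both methylated libraries lay above both unmethylated ones, and the 95% Wilson intervals of the lowest methylated and the highest unmethylated library did not meet. They cover counting error only. The gap was narrowest for AAACC, whose unmethylated mean was the highest of the 3 and whose unmethylated libraries differed most from each other. The ratio of the means was 1.61 for AAACC (3.40 ± 0.583 against 5.46 ± 0.765, SD, n = 2 each), 2.52 for GAACC (2.85 ± 0.332 against 7.19 ± 0.146) and 2.58 for UAACC (2.11 ± 0.114 against 5.44 ± 1.495). Over the 150 sequences together it was 2.16, from 2.86 ± 0.0119 to 6.16 ± 0.584. With 2 libraries per group, the exact permutation test (two-sided) gave p = 0.333 for each version, the smallest it can give.

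The GGACU partners of the same loci stood at 3.39 and 4.54 counts per 1000 without the enzyme and at 11.7 and 10.4 with it, a ratio of 2.78. Within each library, the log2 share of the AAACC versions over that of the partners was 0.17 and -0.61 unmethylated and -0.96 and -1.08 methylated. For AAACC both methylated libraries were therefore below both unmethylated ones. The difference was -0.80 on the log2 scale (exact permutation p = 0.333, the smallest possible).

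The GAACC versions over the partners stood at -0.37 and -0.56 unmethylated and at -0.72 and -0.51 methylated, a difference of -0.15 (exact permutation p = 0.667). For UAACC these log2 shares were -0.74 and -1.05 unmethylated and -0.84 and -1.25 methylated, again a difference of -0.15 (exact permutation p = 0.667). In both cases the groups overlapped, so a smaller pooled response than that of GGACU was not shown for GAACC or UAACC. The UAACC difference turned positive without unmethylated replicate 1 (0.0075) or without methylated replicate 2 (0.0538).

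These pooled differences rested on a few loci. PACS2 gave 28.3% of all counts at the adenosine of the AAACC versions and 33.4% of those of the UAACC versions, and SLC35H1 gave 41.5% of those of the GAACC versions and 29.9% of those of the partners. The 3 sequences with the most counts together held 53.02% (AAACC), 66.9% (GAACC), 57.5% (UAACC) and 68.8% (partners). Without the PACS2 locus, an alternative chosen after its values were seen, the differences from the partners were -1.22 for AAACC, -0.72 for GAACC and -1.08 for UAACC. Without the SLC35H1 locus, the top sequence of GAACC, the GAACC difference was -0.0046. When each sequence with at least 50 counts over its positions in every library counted equally, the differences from the partners were -1.83, -1.12 and -1.31. Versions and partners passed this minimum separately, so their loci did not fully match, as at FBXL15, where only the partner passed. Thin partners also weighed in: that of DNAJB1, with 62 to 188 counts per library, held 0 and 0 per 1000 without the enzyme. With it, this partner held 105.7 and 53.2.

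At the 21 loci with an identical partner, where PACS2 and SLC35H1 are not included, all 3 versions had lower ratios than the partners. The ratios of methylated to unmethylated shares there were 2.13 (AAACC), 2.85 (GAACC), 3.02 (UAACC) and 3.90 (partners). The differences from the partners were -0.85, -0.44 and -0.36 on the log2 scale, with exact permutation p-values of 0.333, 0.667 and 0.333. Versions of the same 21 loci with 1 exchanged base are the nearest relatives of the members: AGACU had a ratio of 2.11 and UGACU one of 1.68. Their mean shares were 2.10 without and 4.42 with the enzyme (AGACU), and 5.32 and 8.92 (UGACU). The UAACC means were 0.848 and 2.56, and those of the partners 1.46 and 5.70. The low UGACU ratio thus came with the highest share in both groups.

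The versions differ from each other only at position 49. Over 50 loci the log2 ratio of AAACC to GAACC was 0.54 and -0.05 unmethylated and -0.24 and -0.57 methylated, a difference of -0.65 (exact permutation p = 0.333). AAACC against UAACC was 0.91 and 0.45 unmethylated and -0.12 and 0.17 methylated, also -0.65 (exact permutation p = 0.333). UAACC and GAACC differed by 0.0012 (exact permutation p = 1.0). For both AAACC pairs the groups did not overlap, and for UAACC against GAACC they did. These differences also rested on PACS2: without it they were -0.50 for AAACC against GAACC (exact permutation p = 0.667) and -0.14 for AAACC against UAACC (exact permutation p = 1.0), with overlapping groups in both. At the 21 loci with an identical partner AAACC against GAACC was -0.41 (exact permutation p = 0.667), also with overlap.

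Single sites were tested where at least 10 counts were present in at least 2 of the 4 libraries. Of the 150 sequences, 27 passed at position 51. Of the others, 59 had no count there in any library. The untested members were not without signal as a pool: they went from 0.703 ± 0.0568 to 1.63 ± 0.348 counts per 1000 (SD, n = 2), a ratio of 2.31. The tested members had a ratio of 2.12.

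In the edgeR quasi-likelihood test, with p-values adjusted over all 142938 sites, 6 of the 27 members rose. Over all sites, 3.7% were called higher and 2.01% lower, and the 6 members were all called higher. Among the selected adenosines of all described classes it was 42.3% of 1200. The calls were 1 of 10 AAACC sites (CDX2), 4 of 10 GAACC sites (PACS2, PCYT2, SLC35H1 and ZNF337-AS1/ZNF337) and 1 of 7 UAACC sites (PACS2). The log2 fold change was positive at 25 of the 27, with a median of 0.87 against -0.01 over all sites. Both methylated libraries lay above both unmethylated ones at 18 of the 27, against 24.9% of all sites. The 6 calls became 2 without methylated replicate 1 or without methylated replicate 2, and 3 with DESeq2 or a minimum of 50 counts.

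A site that reached the minimum only in the methylated libraries had to be higher there. Of the 27 members, 4 had under 10 counts in both unmethylated libraries, and 1 of these was among the 6 calls (PCYT2, in GAACC). These 4 also enter the counts and the median of all 27 given above. Of the other 23 members 5 were called, and the median log2 fold change of the 23 was 0.70. Among the 14 partners tested, 9 had under 10 counts in both unmethylated libraries, as did 7 of the 10 partners called higher. The filter thus selected the partners more strongly than the members, and their counts of calls are not set against each other.

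PACS2 was the one locus whose versions were called different from each other at the adenosine. Levels are given in CPM, the counts at the adenosine scaled to the effective library size. Its GGACU partner stood at 15.6 and 20.9 CPM without the enzyme and 27.4 and 23.8 CPM with it. The partner thus carried much signal before methylation, and its log2 fold change of 0.49 ± 0.28 (SE) had an edgeR adjusted p of 0.369. The AAACC version stood at 6.50 and 7.12 CPM without the enzyme and 11.8 and 8.46 CPM with it. Without the enzyme AAACC was thus well above GAACC and UAACC in both libraries. The AAACC change of 0.57 ± 0.31 had an edgeR adjusted p of 0.334. The partner sequence was also more abundant than AAACC, with 16345 counts over all positions against 4746 in unmethylated replicate 1. Per 1000 counts of the sequence, the partner held 10.1 and 12.4 without the enzyme, and AAACC held 14.5 and 12.2. With the enzyme these shares were 18.1 and 15.8 in the partner and 26.4 and 18.2 in AAACC.

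The GAACC version of PACS2 stood at 1.41 and 1.63 CPM (15 and 19 counts) without the enzyme and 9.35 and 8.17 CPM with it. The UAACC version stood at 1.51 and 1.46 CPM (16 and 17 counts) without the enzyme and 13.4 and 7.29 CPM with it. In CPM both versions were low before methylation and near the AAACC level after it, with no overlap between the groups. Per 1000 counts of the sequence, GAACC held 3.746 and 3.601 without the enzyme and 17.4 and 16.03 with it. For UAACC these shares were 4.88 and 5.104 without and 36.5 and 23.8 with it. With the enzyme, the GAACC shares thus lay below both AAACC shares, and the UAACC shares overlapped with those of AAACC. The log2 fold changes were 2.51 ± 0.36 for GAACC (edgeR adjusted p = 7.51e-05) and 2.80 ± 0.39 for UAACC (edgeR adjusted p = 4.61e-05). The means were 1.52 ± 0.153 and 8.76 ± 0.838 CPM for GAACC and 1.48 ± 0.0347 and 10.4 ± 4.35 CPM for UAACC (SD, n = 2).

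The 3 tagged oligonucleotides of a sequence showed where the PACS2 signal lay. Tag 3 of the AAACC version gave 5.84 and 7.12 CPM without the enzyme and 10.8 and 7.73 CPM with it. Tag 1 of the partner gave 13.1 and 18.1 CPM without the enzyme and 24.4 and 19.3 CPM with it. The unmethylated signal of both sequences was thus mostly that of 1 tag, and the part of the tag in the differences between versions was not tested.

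In the GAACC version of PACS2 all 3 tags were higher in both methylated libraries: tag 1 went from 0.471 and 0.601 CPM to 2.55 and 1.24 CPM, tag 2 from 0 and 0 to 3.09 and 2.48 CPM, and tag 3 from 0.943 and 1.03 to 3.71 and 4.45 CPM. In the UAACC version tag 1 went from 0 and 0.0858 CPM to 1.78 and 0.729 CPM, tag 2 from 1.23 and 1.03 to 9.27 and 4.52 CPM, and tag 3 from 0.283 and 0.343 to 2.396 and 2.04 CPM. The rise in these versions was present in every tag.

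The 3 versions of SLC35H1 differed in level. Its GAACC version stood at 9.90 and 12.02 CPM without the enzyme and 22.96 and 24.7 CPM with it. Its AAACC version stood at 1.89 and 1.03 CPM without the enzyme and 1.16 and 1.09 CPM with it, and its UAACC version at 1.13 and 0.687 CPM without and 1.08 and 0.948 CPM with it. The GAACC version was high in all 4 libraries and higher still in the methylated ones, while the groups overlapped for AAACC and UAACC. The GAACC sequence was also more abundant, with 11934 counts over all positions in unmethylated replicate 1 against 2354 (AAACC) and 2589 (UAACC). Per 1000 counts of the sequence, the adenosine held 8.80 and 10.8 in GAACC without the enzyme and 22.1 and 21.9 with it. For AAACC these shares were 8.50 and 5.40 without and 6.45 and 5.84 with the enzyme.

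The GAACC change at SLC35H1 was 1.12 ± 0.28 (log2, SE, edgeR adjusted p = 0.0162), against 1.52 ± 0.30 for the partner (edgeR adjusted p = 0.00232), which went from 8.29 and 15.0 CPM to 32.4 and 34.8 CPM. Tag 3 of the GAACC version went from 4.34 and 4.12 CPM to 16.1 and 14.7 CPM. Tag 1 gave 1.32 and 1.37 CPM without the enzyme and 1.93 and 0.948 CPM with it, and tag 2 gave 4.24 and 6.52 CPM without and 4.95 and 9.04 CPM with it, so that both overlapped between the groups. The call was lost without unmethylated replicate 1 (adjusted p = 0.0593), methylated replicate 1 (0.0751) or methylated replicate 2 (0.166).

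CDX2, a homeobox factor of the intestinal epithelium, was the one AAACC call. This version held 15 and 13 counts without the enzyme and 39 and 56 with it. Its log2 fold change was 1.49 ± 0.43 (edgeR adjusted p = 0.0383). Tag 2 went from 4 and 5 counts to 31 and 40, while tag 3, with 6 and 5 without and 7 and 13 with the enzyme, overlapped in CPM between the groups. The GAACC version held 3 and 25 counts without and 26 and 36 with the enzyme (0.90 ± 0.56, edgeR adjusted p = 0.418), and the UAACC version 15 and 23 without and 36 and 69 with it (1.20 ± 0.42, edgeR adjusted p = 0.100).

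In CPM, both methylated libraries exceeded both unmethylated ones for AAACC and UAACC at CDX2, and the groups overlapped for GAACC. The partner went from 22 and 34 counts to 193 and 172, a log2 fold change of 2.45 ± 0.34 (edgeR adjusted p = 3.65e-05). The AAACC call at CDX2 was lost without unmethylated replicate 2 (adjusted p = 0.134), methylated replicate 1 (0.0732) or methylated replicate 2 (0.322), with DESeq2 (0.163), and when sites with 5 counts or any count were added (0.0510 and 0.0544).

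At ZNF337-AS1/ZNF337, where a zinc-finger gene and its antisense gene overlap, the GAACC version went from 12 and 18 counts to 57 and 48 (log2 fold change 1.55 ± 0.41, edgeR adjusted p = 0.0252). Its tag 3 went from 4 and 6 counts to 38 and 30, while tag 1, with 6 and 9 without and 17 and 10 with the enzyme, overlapped in CPM. The AAACC version held 31 and 30 counts without the enzyme and 66 and 55 with it (0.73 ± 0.36, edgeR adjusted p = 0.289). The UAACC version held 14 and 17 counts without and 31 and 16 with it, and its groups overlapped. The partner, with far fewer counts, went from 5 and 2 to 25 and 32. The GAACC call was lost without unmethylated replicate 1 (adjusted p = 0.101), methylated replicate 1 (0.218) or methylated replicate 2 (0.113), and with DESeq2 (0.108).

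PCYT2, an enzyme of phosphatidylethanolamine synthesis, was called in the GAACC version on few counts: 0 and 1 without the enzyme and 20 and 22 with it. The ratio of the summed counts, scaled to effective library sizes, was 35.1, with a 95% counting interval of 5.96 to 1418. Of these counts, tag 2 held 0 and 1 unmethylated and 18 and 19 methylated. The edgeR adjusted p was 0.00177. Its partner held 1 and 1 counts without and 25 and 8 with the enzyme, a ratio of 13.8 (95% counting interval 3.52 to 118.5), and the AAACC and UAACC versions held at most 7 counts in any library. PCYT2 in GAACC passed the filter only through its methylated libraries, so it was not tested without either of them, and DESeq2 gave it no adjusted p.

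The direct test asked whether the change at the adenosine differed between a version and its partner in the same libraries. With partners identical outside the motif, 6 of the 63 pairs had enough counts, and edgeR called none of them (2 had an unadjusted p under 0.05, and DESeq2 called 0). Over all pairs and positions of permutated sequences in that fit, 0.0468% were called lower and 0.117% higher. The median of the 6 differences was -1.17 on the log2 scale, against 0.026 over all 4269 rows. The minimum could be met through the methylated columns of both sequences, so such medians describe only the pairs that passed.

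At CHKA, choline kinase alpha, the AAACC version held 31 and 33 counts without the enzyme and 49 and 53 with it, and its partner 4 and 3 without and 44 and 16 with it. As counts the version was higher than the partner in every library, but its sequence was also more abundant. Per 1000 counts of the sequence, the version held 7.60 and 5.55 without and 8.72 and 10.8 with the enzyme, and the partner 2.38 and 1.67 without and 23.3 and 9.13 with it. The version changed by a smaller ratio, with a difference of -2.30 (SE 0.75, edgeR adjusted p = 0.319). CHKA in the GAACC version had 1 count at the adenosine in all 4 libraries, and in the UAACC version 0 and 0 without the enzyme and 5 and 2 with it.

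SPG7, whose sequences are given above, had a partner that went from 1 and 7 counts to 38 and 28. The AAACC version went from 5 and 10 to 18 and 18, the GAACC version from 3 and 7 to 12 and 10, and the UAACC version from 4 and 1 to 17 and 13. As counts at the adenosine, all 4 sequences were higher in both methylated libraries, but the totals of SPG7 in GAACC were higher there too (593 and 703 against 1573 and 1774). So were those of AAACC (484 and 542 against 737 and 923) and of the partner (2129 and 1861 against 3261 and 3941). The partner sequence was thus more abundant than AAACC in every library. Per 1000 counts of the GAACC sequence the adenosine held 5.06 and 9.96 without and 7.63 and 5.64 with the enzyme, so the groups overlapped. The differences from the partner were -1.81, -1.94 and -0.53, none called. NEURL4 (GAACC) differed from its partner by 0.23 and ESS2 (GAACC), a spliceosome-associated protein gene, by 1.20, also not called.

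The test was repeated with the 29 partners that differ in the first 5 positions, an alternative chosen after the data were seen. Now 24 pairs at 10 loci were tested, with 0.0357% of all rows called lower and 0.196% called higher. The change was smaller than in the partner at 19 of the 24 pairs. The median difference was -1.11, against 0.0097 over all 11201 rows, which hold all positions. Pairs of a locus shared its partner, so the 24 signs were not independent. A pair could also pass through its partner alone, as CRKL in AAACC and in UAACC did. The 19 of 24 and the medians thus describe only the pairs that passed. By version the medians were -1.87 (8 AAACC pairs), -0.44 (9 GAACC pairs) and -1.27 (7 UAACC pairs). An unadjusted p under 0.05 was found for 10 pairs.

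The 2 calls in this fit were of a larger change in the weakened motif than in GGACU, and both were at PACS2. The log2 fold change of the GAACC version exceeded that of the partner by 2.03 ± 0.38 (edgeR adjusted p = 0.00272). That of the UAACC version exceeded it by 2.26 ± 0.39 (edgeR adjusted p = 8.96e-04). The partner of PACS2 is the one at 15.6 and 20.9 CPM before methylation. Among the negative differences were CRKL, an adaptor in growth factor signalling, in AAACC (-3.31 ± 1.01, edgeR adjusted p = 0.247) and SLC35H1 in AAACC (-1.92 ± 0.50, edgeR adjusted p = 0.102). The GAACC call did not hold when any 1 library was left out, nor the UAACC call without either unmethylated library or methylated replicate 1. With 1 library left in a group, such a loss cannot be told from a lack of power. With any 1 library left out, the differences ran from 1.90 to 2.13 (GAACC) and from 1.90 to 2.58 (UAACC).

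All 3 versions of CRKL held few counts: the partner went from 11 and 17 counts to 86 and 93, while the AAACC version held 6 and 2 without the enzyme and 2 and 3 with it. Its UAACC version held 2 and 2 without and 3 and 2 with the enzyme, and its GAACC version 2 and 3 without and 10 and 7 with it. At ATG4B, a protease of autophagy, the partner went from 24 and 32 counts to 78 and 62, and the GAACC version from 44 and 52 to 89 and 87. The AAACC version of ATG4B held 45 and 30 without and 62 and 50 with the enzyme, and the UAACC version 18 and 14 without and 22 and 17 with it, so that this locus showed its smallest change in UAACC (0.02 ± 0.49, edgeR adjusted p = 0.989).

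The loci named outside the pair test had a weak partner or weak versions. HIF1AN, an inhibitor of hypoxia signalling, had a partner that went from 1 and 3 counts to 46 and 36, a log2 fold change of 4.03 ± 0.63 (edgeR adjusted p = 1.84e-04). The AAACC version of HIF1AN held 4 and 3 without and 13 and 6 with the enzyme, and the UAACC version 7 and 1 without and 15 and 9 with it. The partner sequence was far more abundant, with 24648 counts over all positions against 3157 for AAACC in unmethylated replicate 1. Per 1000 counts of the sequence, the partner held 0.0406 and 0.103 without and 1.60 and 1.28 with the enzyme. AAACC held 1.27 and 1.07 without and 2.05 and 0.657 with it. For UAACC these shares were 1.53 and 0.225 without and 2.97 and 1.35 with it, so the groups overlapped in both versions. At TUSC1 the partner was the weak sequence, with 0 and 0 counts without and 3 and 3 with the enzyme, while its GAACC version held 10 and 5 without and 18 and 18 with it. ACTR5, a subunit of a chromatin remodelling complex, held no count in the GAACC version without the enzyme and 4 and 5 with it. The AAACC version of SNAP47/JMJD4 held 0 and 3 without and 11 and 9 with the enzyme.

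Versions of 1 locus were also set against each other, a comparison added after the data were seen. Over all positions, 0.308% of 6813 rows were called lower and 0.426% higher. At the adenosine, edgeR called the change in AAACC smaller than in GAACC at 1 of 10 loci and smaller than in UAACC at 1 of 8. In both cases the locus was PACS2. The differences there were -1.96 (edgeR adjusted p = 8.98e-04) and -2.19 (edgeR adjusted p = 1.01e-04). Neither call held when any 1 of the 4 libraries was left out, which leaves 1 library in a group. Such a loss cannot be told from a lack of power. The differences then ran from -2.10 to -1.82 and from -2.38 to -1.98. The first call was also lost when counts were set against sequence totals (edgeR adjusted p = 0.0603). UAACC against GAACC gave no call at 8 loci (1 with an unadjusted p under 0.05), with a median difference of -0.03. DESeq2 gave an adjusted p only at PACS2 and SLC35H1 of these and called neither.

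Within 10 bases of the adenosine, the UAACC versions also held a high signal that did not need the enzyme. At position 48, the base just before the motif, these held 60.4 and 52.5 counts per 1000 without the enzyme and 60.9 and 57.5 with it. The 4 libraries overlapped, and the ratio of the means was 1.05. This signal was far above that at the adenosine of the same sequences.

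At the same base without the enzyme, the AAACC versions held 6.13 ± 0.147, the GAACC versions 3.03 ± 0.0142 and the partners 1.98 ± 0.280 counts per 1000 (SD, n = 2), against 56.5 ± 5.58 in UAACC. The UGACU versions, which share the U at position 49, held 9.49 ± 0.306. HIF1AN gave 23.9% of the UAACC counts, and without it the UAACC mean was still 49.5 unmethylated and 47.4 methylated. Among loci where both sequences held at least 200 counts over the 4 libraries, the UAACC share at position 48 was higher than that of AAACC at 38 of 40, of GAACC at 39 of 40, of the partner at 39 of 39 and of UGACU at 39 of 42.

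The median over sequences was 15.7 counts per 1000 in UAACC, 2.41 in AAACC, 2.272 in GAACC, 2.995 in UGACU and 0.992 in the partners. By the base at position 48 itself, the UAACC median was 26.9 after A (17 sequences), 10.4 after G (7 sequences) and 9.72 after U (17 sequences). The UAACC sequences chosen from the transcriptome, which are not among the members, showed the same feature: their median was 23.6 over 23 sequences with at least 200 counts, against 1.03 for AAACC and 1.62 for GAACC. It was the highest of the 19 motifs with at least 5 such sequences, followed by UGACC with 10.5, while UAACU had 2.12. The share of UAACC at position 49 was 22.3 ± 3.51 without and 29.8 ± 5.57 counts per 1000 with the enzyme.

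The adenosine was the position with the highest ratio in each version. Over the other 20 positions within 10 bases, the ratio of methylated to unmethylated shares ran from 0.903 to 1.44 in AAACC, from 0.856 to 1.70 in GAACC and from 0.851 to 1.74 in UAACC. It ran from 0.922 to 1.43 in the partners.

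Further GGACH adenosines in the same RNAs, at least 11 bases from the exchanged site, gave a reference within the members. At 28 such adenosines the AAACC versions went from 1.49 and 1.61 counts per 1000 to 9.68 and 10.04, a ratio of 6.37. In the GAACC versions the ratio was 3.88 and in the UAACC versions 4.51. All 3 are above the ratios at the exchanged adenosine, and they stayed so without the sequence with the most counts (5.55, 3.90 and 2.65). The same held for the partners, with 3.22 at these adenosines (3.97 without the top sequence) against 2.78 at the intact site. At 89 other DRACH adenosines the ratios were 2.22 (AAACC), 2.34 (GAACC) and 2.48 (UAACC), against 1.45 in the partners. Without the sequence with the most counts they were 1.55, 2.07 and 1.86, against 1.70. Ratios at unaltered adenosines thus also differed between versions and partners. These ratios were not tested against those at position 51.

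Sequences from the transcriptome that carry the same motifs gave ratios that varied with their class. The 31 GAACC sequences of the m6A class, selected for an m6A site in the human embryonic kidney line HEK293T, went from 2.69 ± 0.325 to 8.78 ± 0.491 counts per 1000 (SD, n = 2), a ratio of 3.26. The 97 GAACC sequences of the unmodified class had a ratio of 2.03. For AAACC the ratios were 1.38 (5 sequences, m6A class) and 2.91 (59 sequences, unmodified class), and for UAACC 2.26 (4 sequences) and 2.02 (22 sequences). The GAACC members, with 2.52, and the AAACC members, with 1.61, lay between the classes of their motif. The UAACC members, with 2.58, lay above both classes of theirs. The order of the 3 motifs in the unmodified class was not that of the members.

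The exchange also changed the predicted pairing. The median predicted probability that position 51 was unpaired was 0.968 in AAACC, 0.903 in GAACC and 0.969 in UAACC, against 0.789 in the partners. Within a locus the median difference from the partner was smaller, at 0.067, 0.031 and 0.040, and the version was higher at 37, 35 and 33 of the 50 loci. At CHKA it was 0.113 in the partner and 0.649 in AAACC, while at CDX2 it was 1.00 in both. The part of pairing in the counts was not tested.

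In the fit with identical partners, 3 positions of the members outside the motif were called of 1869 tested over all positions. This is 0.161%, close to the sum of the shares called lower and higher over all permutated sequences in that fit (0.0468% and 0.117%), so the count is no more than the background. At SPG7 in AAACC, position 98 held 40 and 34 counts without and 43 and 50 with the enzyme, while its partner went from 42 and 39 to 178 and 234 (difference -2.01, edgeR adjusted p = 0.0196). At ACTR5 in AAACC, the position 13 bases after the adenosine differed by -2.02 (edgeR adjusted p = 1.55e-04) and that 52 bases after it by 2.85 (edgeR adjusted p = 0.0253). The first of these lay almost wholly in 1 tag: of its 711 and 430 unmethylated counts, 1110 were from that tag. None of the 3 positions is an adenosine.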

How the data were processed

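The authors deposited raw counts per position, without normalization, in 1 table of 141 positions per oligonucleotide and library. Per the submitters' processing notes, FastQC 0.11.8, STAR 2.7.3a and bedtools 2.27.1 were used. The build and any removal of duplicate reads: not given in the sources used here. No column belonged to another series (0 columns).

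Counts of the 3 oligonucleotides of a sequence were summed. Sites reaching 10 counts in 2 or more of the 4 libraries entered the fit in edgeR 4.0.16 under R 4.3.3 (quasi-likelihood test, trimmed mean of M values, two-sided, Benjamini-Hochberg adjustment over all sites, threshold 0.05). The SE of a change is the change divided by the root of F. Pairs (at least 10 counts in at least 4 of 8 columns) were tested as the interaction of sequence and treatment, with library as a term. Both fits were tested on simulated data. Alternatives were DESeq2 1.42.0, library totals, other count filters, sequence totals, unsummed oligonucleotides, a replicate term, other pooling, and leaving out each library. CPM used effective library sizes. Pairing came from ViennaRNA 2.7.2, and summaries from Python 3.11.15, pandas 2.3.3, numpy 2.4.6 and scipy 1.17.1.

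Members, lists and tests were chosen with earlier results of these data known. Loci were named where the pair test could be run, plus 5 others with the most counts at position 51. The labels do not say whether replicates were separate reactions. P-values therefore measure the spread between these samples alone, and that spread may be technical. Intervals cover counting error only, since duplicate reads are not independent molecules.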

Additional observations from a re-analysis of the deposited data

Results flagged for a closer look

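Versions of PACS2 differed in their change at the adenosine by a test of the difference itself. The change in AAACC was smaller than in GAACC (difference of log2 fold changes -1.96) and than in UAACC (-2.19). The change in GAACC was larger than in the GGACU partner (2.03), as was that in UAACC (2.26). The counts of AAACC and of the partner before methylation lay mostly in 1 tag each, as given above.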

How the results depend on the processing

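Of the 27 adenosines tested, 6 were called. The count was 5 or 6 with at least 5 counts, no count filter, library totals, sequence totals or unsummed oligonucleotides. It was 3 with at least 50 counts (7 tested) and 3 with DESeq2 (19 with an adjusted p). Leaving out 1 library gave 2 to 6, with 2 without methylated replicate 1 or methylated replicate 2. PACS2 in GAACC and UAACC was called under every alternative run. Pairs against identical partners stayed at 0 calls under all alternatives on the same pairs, 1 of which (at least 50 counts) left 0 pairs. With partners of differing ends 2 were called, both with a larger change in the weakened motif.

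The replicate numbers share only a number: the differences between replicates 1 and 2 of the 2 groups had a correlation of -0.0853 over 142938 sites. With the replicate block, 6 sites and 0 pairs were called, and no call at a named site changed.

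The log2 ratio of pooled shares was 0.68 (AAACC), 1.33 (GAACC) and 1.37 (UAACC). At the loci with identical partners it was 1.09 in AAACC and 1.51 in GAACC, and without the PACS2 locus, which is also the top sequence, 0.87 in UAACC. Leaving out 1 library gave 0.52 to 0.87, 1.22 to 1.46 and 1.06 to 1.62. Against partners, with sequences of at least 50 counts in every library weighted equally, the differences were -1.83, -1.12 and -1.31. Without PACS2 they were -0.72 in GAACC and -1.08 in UAACC, and at identical-partner loci -0.44 in GAACC. Without the top sequence of GAACC (SLC35H1) the difference was -0.0046. Leaving out 1 library gave -1.19 to -0.42 (AAACC), -0.25 to -0.05 (GAACC) and -0.35 to 0.0538 (UAACC, which was also positive without unmethylated replicate 1, at 0.0075). The restriction to identical partners and the removal of PACS2 were chosen after the data were seen.

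Depth is a limit: 59 members had no count at the adenosine, for which 3 counts is the bound that a count of 0 allows, and 2 libraries per group cannot give a permutation p below 0.333.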
